A study of Mus musculus with 6 samples.

Results

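Macrophages clear surplus cholesterol by exporting it to lipoproteins, and the genes described here encode the exporters, acceptors, sensors and helpers of that route. They were all probe sets that the platform annotation assigned to exactly one gene symbol, that symbol being Abca1, Abcg1, Apoe, Apoc2, Nr1h3, Nr1h2, Mylip, Ch25h, Cyp27a1 or Pltp. This gave 14 of the 45101 probe sets of the array, for 9 of the 10 genes. Nr1h2 is not analysed here. Macrophages were grown from the femoral marrow of mice that lack vimentin, the intermediate filament protein of these cells, and of their wild-type littermates. Their RNA was measured on mouse whole-genome Affymetrix expression arrays, 3 per genotype. The mice had a C57BL/6 background, were fed rodent chow and were aged 17 weeks. All cultures were kept at normal oxygen in medium with the supernatant of the cell line CMG14-12, a source of macrophage colony-stimulating factor. No source used here tells how the Vim allele was made, and the marrow recipients named in the series design are not on these arrays. The labels name the samples of a genotype biological replicates without saying whether animals or cultures differ. The p-values therefore measure the spread between the samples that each fit includes.

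Oxysterols, which are oxidised forms of cholesterol, bind the liver X receptors LXR alpha (Nr1h3) and LXR beta (Nr1h2). These nuclear receptors sit on DNA with a retinoid X receptor and raise transcription of Abca1 and Abcg1, of the apolipoprotein genes Apoe and Apoc2, of Pltp and of Mylip. Falling cellular cholesterol instead releases SREBP2, a transcription factor that drives cholesterol synthesis and uptake, so both systems respond to sterols in opposite directions. In the artery wall, macrophages that take up more cholesterol than they export become foam cells.

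The array itself carries no genome sequence, so promoter letters were taken from RefSeq (build GRCm38.p6), whose table of gene starts held 9 of the 10 genes with 12 starts. Below, 2 stretches of 250 bases before the start are shown. Abca1 is the LXR target with the most probe sets here, and Ch25h is the one gene here that passed the threshold as higher in vimentin-deficient cells, in the comparison without vimentin-deficient replicate 3. The LXR element DR4 was searched on both strands as the half-site AGGTCA, any 4 bases, and AGGTCA again. With up to 2 mismatches in its 12 fixed letters it was in 0 of the 12 promoters and in 2.57% of all 32851 promoters. With up to 3 mismatches, a tolerance chosen after seeing the letters, it was in Abca1 only, and in 18.5% of all promoters. The match lies 67 to 52 bases before the start and reads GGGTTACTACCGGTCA on the other strand. The cyclic AMP response element TGACGTCA, which ATF and CREB factors recognise, was in Ch25h alone, 61 to 54 bases before the start, and in 1.55% of all promoters. The E box CACGTG was in 1 of the 12 promoters, that of Abca1 (6.02% of all promoters), and the core of the interferon element, TTTC, any 2 bases and TTTC, was in 0 (2.98% of all). No searched motif overlapped another in these windows. These matches describe letters only. In the lines below, capitals mark the DR4 match in Abca1 (chr4:53159896-53160145, minus strand) and TGACGTCA in Ch25h (chr19:34475149-34475398, minus strand).
Abca1: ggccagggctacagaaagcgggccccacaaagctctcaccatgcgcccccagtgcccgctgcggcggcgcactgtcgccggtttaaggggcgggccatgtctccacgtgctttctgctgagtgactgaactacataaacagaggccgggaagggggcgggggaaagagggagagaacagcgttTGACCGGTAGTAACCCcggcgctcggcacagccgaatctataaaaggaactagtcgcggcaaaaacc
Ch25h: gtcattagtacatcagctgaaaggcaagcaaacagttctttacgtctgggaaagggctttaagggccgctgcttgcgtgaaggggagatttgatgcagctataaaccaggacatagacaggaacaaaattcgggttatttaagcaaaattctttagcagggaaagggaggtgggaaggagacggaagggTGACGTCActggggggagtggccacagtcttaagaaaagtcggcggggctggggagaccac

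Values are the deposited log2 probe set values, with array medians between 7.23 and 7.25. Vim read 12.45 to 13.41 on wild-type arrays and 6.23 to 8.60 on vimentin-deficient arrays over its 3 probe sets. Vimentin-deficient replicate 3 stood apart. It correlated with the other arrays at 0.975 to 0.979, and the other 5 arrays with each other at 0.992 to 0.998. The genotype fits were therefore run with and without that replicate, and some results are given from a single fit. Fits without replicate 3 do not count its spread. The macrophage genes Csf1r, Cd68 and Lyz2 read 13.05 to 14.22 on every array. On replicate 3 other macrophage markers moved both ways: Mrc1, the mannose receptor gene, read 11.39 there and 12.72 to 13.03 elsewhere, and Fcgr1, a gene of an IgG receptor, read 11.70 there and 9.82 to 10.21 elsewhere. The labels do not give a batch, and 3 arrays per genotype limit the precision of every comparison.

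With all 6 arrays, 0 of the 14 probe sets passed the threshold, a limma adjusted p under 0.05 by Benjamini-Hochberg over 27022 probe sets (0.0185% of all tested passed, all of them lower). Those that passed included every probe set of Vim itself (limma adjusted p of 0.0104 to 0.0287). By an unadjusted limma p of 0.05 the count was also 0 of 14, against 7.19% of all tested. Without vimentin-deficient replicate 3, Apoe and Abca1 fell and Ch25h rose: 4 of the 14 probe sets passed, against 1.64% of all tested. Of these, 3 were lower (0.692% of all tested) and 1 was higher (0.951%). By an unadjusted limma p of 0.05 it was 10 of 14 probe sets, of 8 genes, against 12.9% of all tested. The median log2 difference of the 14 was -0.14 with 6 arrays and -0.36 without that replicate, and -0.01 in both fits over all probe sets tested. In RNA of a whole culture, fewer cells that express a gene and less of its RNA per cell cannot be told apart.

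**Figure D1:**
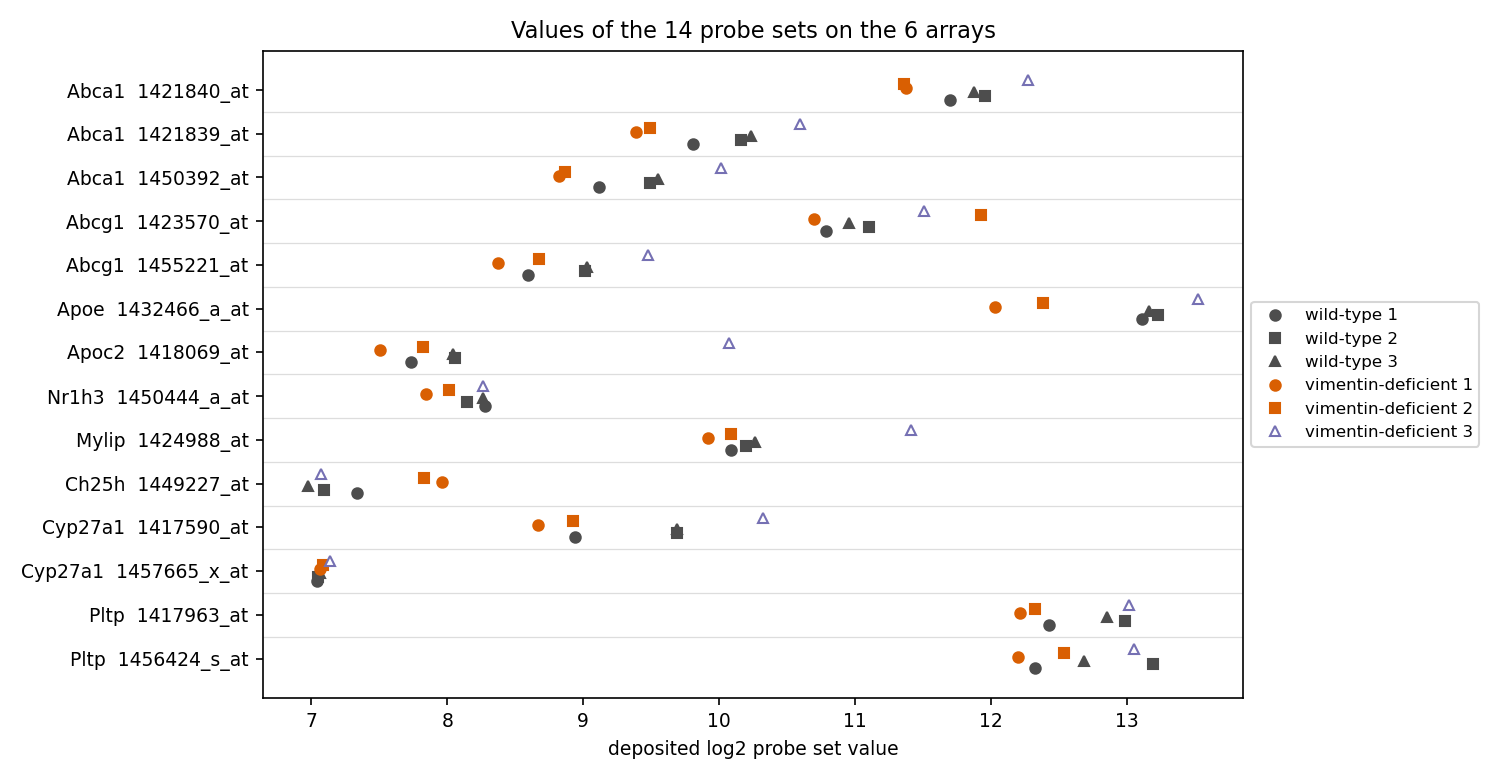
Deposited log2 values (horizontal axis) of the 14 probe sets on the 6 arrays, 1 marker per array, wild-type in grey, vimentin-deficient replicates 1 and 2 in orange and replicate 3 as an open triangle. Replicate 3 is the highest array for 10 probe sets, while replicates 1 and 2 lie below all wild-type arrays for 8.

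The acceptor gene Apoe encodes apolipoprotein E, which macrophages secrete and which takes up exported cholesterol. Its probe set, 1432466_a_at, read 12.03, 12.39 and 13.53 on vimentin-deficient replicates 1, 2 and 3 and 13.12, 13.23 and 13.17 on wild-type replicates 1, 2 and 3. Replicates 1 and 2 lay far below a tight wild-type group, and replicate 3 lay above it. Vimentin-deficient arrays averaged 12.65 ± 0.78 (SD, n = 3) and wild-type arrays 13.17 ± 0.06 (SD, n = 3), a log2 difference of -0.52 (SE 0.35, limma adjusted p = 0.777). Without replicate 3 Apoe fell 1.95-fold (log2 difference -0.96, SE 0.09, limma adjusted p = 0.000829). It was the only one of the 14 probe sets past the threshold in all 5 fits that left out a further array, with log2 differences between -1.14 and -0.78 and limma adjusted p up to 0.0357. In 2 of these fits a lone vimentin-deficient array is assumed to vary like the wild-type group.

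Apoc2, from the same apolipoprotein cluster, encodes apolipoprotein C-II, the activator of lipoprotein lipase. Its values on the vimentin-deficient arrays were 7.50, 7.82 and 10.08, and on the wild-type arrays 7.73, 8.06 and 8.04. The genotypes overlapped on replicates 1 and 2, and replicate 3 was 5.33-fold above their mean. That was the widest gap of replicate 3 among the 14 probe sets. The 6-array log2 difference was 0.52 (SE 0.63, limma adjusted p = 0.879), and without replicate 3 it was -0.28 (SE 0.11, limma adjusted p = 0.315), so its sign depended on that array.

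Abca1 encodes the transporter that loads cholesterol and phospholipid onto lipid-poor apolipoproteins. The probe set with the highest mean, 1421840_at, read 11.38, 11.36 and 12.28 on the vimentin-deficient arrays and 11.70, 11.96 and 11.88 on the wild-type arrays. On 1421839_at the values were 9.39, 9.49 and 10.60 against 9.81, 10.16 and 10.24. The last, 1450392_at, gave 8.82, 8.86 and 10.01 against 9.12, 9.49 and 9.55. On all 3 probe sets the arrays fell in the same blocks: vimentin-deficient replicates 1 and 2 at the bottom, wild-type replicate 1 next, then wild-type replicates 2 and 3, and vimentin-deficient replicate 3 at the top.

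With 6 arrays the log2 differences of Abca1 were -0.17 (SE 0.25), -0.24 (SE 0.32) and -0.15 (SE 0.32), with limma adjusted p of 0.896, 0.888 and 0.934. Without replicate 3 they were -0.47 (SE 0.09, limma adjusted p = 0.0266), -0.63 (SE 0.12, limma adjusted p = 0.0357) and -0.54 (SE 0.12, limma adjusted p = 0.0621), so 2 of 3 passed. Under quantile normalization 1421839_at missed the threshold (limma adjusted p = 0.0515). The probe sets did not differ among themselves beyond their error: the genotype difference of 1421840_at minus 1421839_at was 0.07 (SE 0.11, limma adjusted p = 0.975) and that of 1421840_at minus 1450392_at -0.02 (SE 0.11, limma adjusted p = 0.994). No Abca1 probe set passed in 4 of the 5 fits that left out a further array (all except the fit without wild-type replicate 1), with limma adjusted p up to 0.227 for 1421840_at and up to 0.321 for 1421839_at.

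Abcg1 encodes a transporter that moves sterols to mature high-density lipoprotein particles, and its probe sets differed in sign. On 1423570_at the vimentin-deficient arrays read 10.70, 11.93 and 11.51 and the wild-type arrays 10.79, 11.10 and 10.96. On 1455221_at they read 8.37, 8.67 and 9.47 against 8.59, 9.01 and 9.03. Replicate 2 was the highest of the 6 arrays on 1423570_at, but on 1455221_at it lay below wild-type replicates 2 and 3. The 6-array log2 difference was 0.43 (SE 0.29, limma adjusted p = 0.777) for 1423570_at and -0.04 (SE 0.28, limma adjusted p = 0.983) for 1455221_at. Without replicate 3 they were 0.37 (SE 0.27, limma adjusted p = 0.661) and -0.35 (SE 0.14, limma adjusted p = 0.298).

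The disagreement between the Abcg1 probe sets was tested as the genotype effect on their difference, fitted over 9551 such pairs of probe sets of one gene. It was 0.47 (SE 0.28, limma adjusted p = 0.910) with 6 arrays and 0.72 (SE 0.22, limma adjusted p = 0.469, unadjusted p = 0.0103) without replicate 3. Of all pairs, 0 passed with 6 arrays (0%) and 14 without replicate 3 (0.147%), and 0 of the 5 pairs of the genes described here passed in either fit. Opposite signs between probe sets were common in the table, in 35.5% of the 5791 genes with several tested. In the fit without replicate 3, the positive sign of 1423570_at rested on vimentin-deficient replicate 2. With replicate 3 kept and replicate 2 left out, its log2 difference was 0.16. Without replicates 2 and 3 its log2 difference was -0.25, and without replicates 1 and 3, where replicate 2 is alone, it was 0.98 (limma adjusted p = 0.0215).

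**Figure D2:**
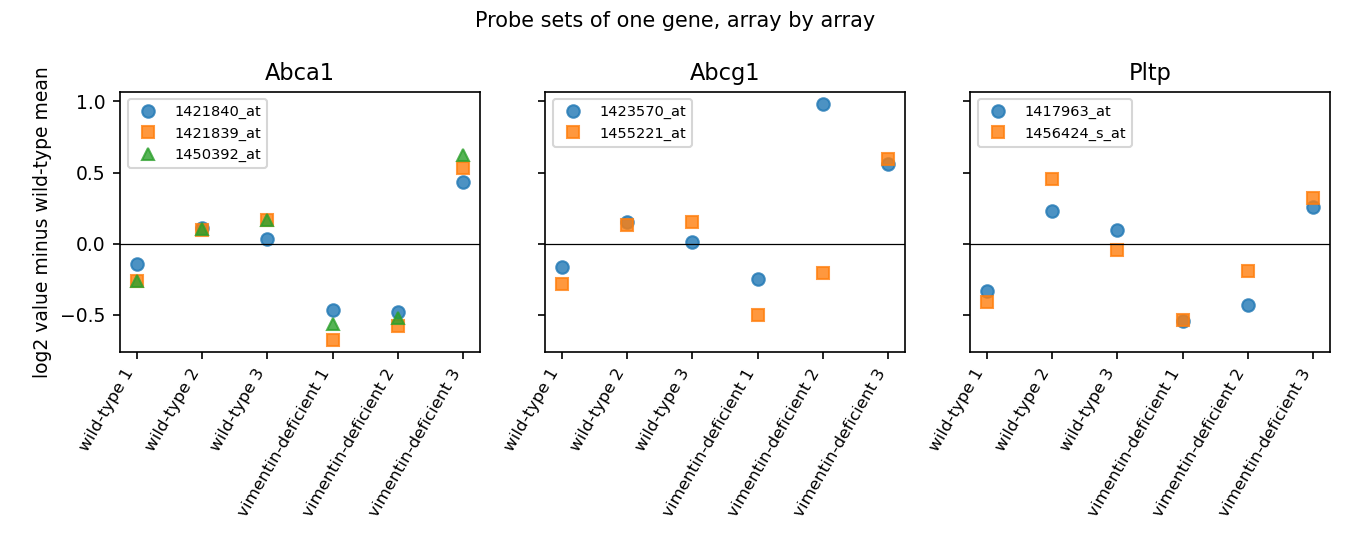
Probe sets of Abca1, Abcg1 and Pltp, each as log2 value minus its own wild-type mean (vertical axis) on the 6 arrays (horizontal axis), 1 marker shape per probe set. The Abca1 probe sets lie close together on every array, whereas those of Abcg1 part on vimentin-deficient replicate 2, where 1423570_at lies at 0.98 and 1455221_at at -0.20.

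The gap between the exporters, Abcg1 minus Abca1 by their probe sets of highest mean, came to -0.68, 0.57 and -0.77 in vimentin-deficient replicates 1, 2 and 3 and to -0.92, -0.86 and -0.92 in the wild-type replicates. On these probe sets the vimentin-deficient values all lay above the wild-type ones. The step was small for replicates 1 and 3 and wide for replicate 2. The difference in this gap was 0.61 (two-sided exact permutation test, p = 0.1, the smallest that 3 arrays against 3 can give). Without replicate 2 it was 0.18 (exact permutation p = 0.1, again the smallest those arrays can give), so most of it rested on that array. With the mean of all probe sets of each gene, the difference in the gap was 0.39 (exact permutation p = 0.1). With the other Abcg1 probe set alone against the same Abca1 probe set, the gaps of the genotypes overlapped. That gap was not tested, so the separation holds only where the Abcg1 probe set of highest mean is included.

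Pltp encodes phospholipid transfer protein, which remodels high-density lipoprotein. On 1417963_at the vimentin-deficient arrays gave 12.21, 12.33 and 13.02 and the wild-type arrays 12.43, 12.99 and 12.86. On 1456424_s_at they gave 12.20, 12.54 and 13.06 against 12.33, 13.19 and 12.69. Wild-type replicate 1 was close to vimentin-deficient replicates 1 and 2 on both, and inside their range on the second. Without replicate 3 the log2 differences were -0.49 (SE 0.14, limma adjusted p = 0.130) and -0.36 (SE 0.20, limma adjusted p = 0.502), and with it -0.24 (SE 0.24, limma adjusted p = 0.848) and -0.14 (SE 0.28, limma adjusted p = 0.930).

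Nr1h3, the gene of LXR alpha, read 7.84, 8.01 and 8.26 on the vimentin-deficient and 8.27, 8.14 and 8.26 on the wild-type arrays. Replicates 1 and 2 lay below all wild-type arrays, and replicate 3 lay among them. The log2 difference was -0.19 (SE 0.11, limma adjusted p = 0.760) with 6 arrays and -0.30 (SE 0.08, limma adjusted p = 0.0988) without replicate 3.

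Mylip encodes an E3 ubiquitin ligase, also called IDOL, that limits lipoprotein uptake. It read 9.92, 10.09 and 11.42 on the vimentin-deficient arrays and 10.09, 10.20 and 10.26 on the wild-type arrays. Replicates 1 and 2 lay just below the wild-type arrays, replicate 2 by less than the spread among them, and replicate 3 was 2.66-fold above the mean of replicates 1 and 2. The log2 difference was 0.29 (SE 0.37, limma adjusted p = 0.884) with replicate 3 and -0.18 (SE 0.09, limma adjusted p = 0.475) without it.

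Both remaining genes make the oxysterols that LXRs bind. Cyp27a1 encodes a mitochondrial enzyme that hydroxylates the side chain of cholesterol. On 1417590_at it read 8.67, 8.93 and 10.32 on the vimentin-deficient arrays and 8.94, 9.69 and 9.69 on the wild-type arrays. Wild-type replicate 1 thus sat beside vimentin-deficient replicate 2, and the other wild-type arrays lay well above both. The log2 difference was -0.14 (SE 0.45, limma adjusted p = 0.959) with 6 arrays and -0.64 (SE 0.20, limma adjusted p = 0.184) without replicate 3. A second probe set, 1457665_x_at, whose suffix marks probes that may bind other transcripts, stayed between 7.04 and 7.14 on every array, near the filter value of 6.93.

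Ch25h encodes a cholesterol hydroxylase of the endoplasmic reticulum that interferon induces in macrophages. It passed the threshold as higher in the fit without vimentin-deficient replicate 3. It read 7.96, 7.83 and 7.07 on the vimentin-deficient arrays and 7.33, 7.09 and 6.97 on the wild-type arrays. Replicates 1 and 2 lay above all wild-type arrays, and replicate 3 lay among them. The wild-type values were near the filter value of 6.93. Under the stricter filter at the 60th percentile Ch25h was not tested, so its call could not be checked there. The log2 difference was 0.49 (SE 0.23, limma adjusted p = 0.724) with 6 arrays. Without replicate 3 Ch25h rose 1.70-fold (log2 difference 0.76, SE 0.10, limma adjusted p = 0.00322). The call was lost when vimentin-deficient replicate 1 (limma adjusted p = 0.0601) or wild-type replicate 3 (limma adjusted p = 0.0534) was left out as well.

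**Figure D3:**
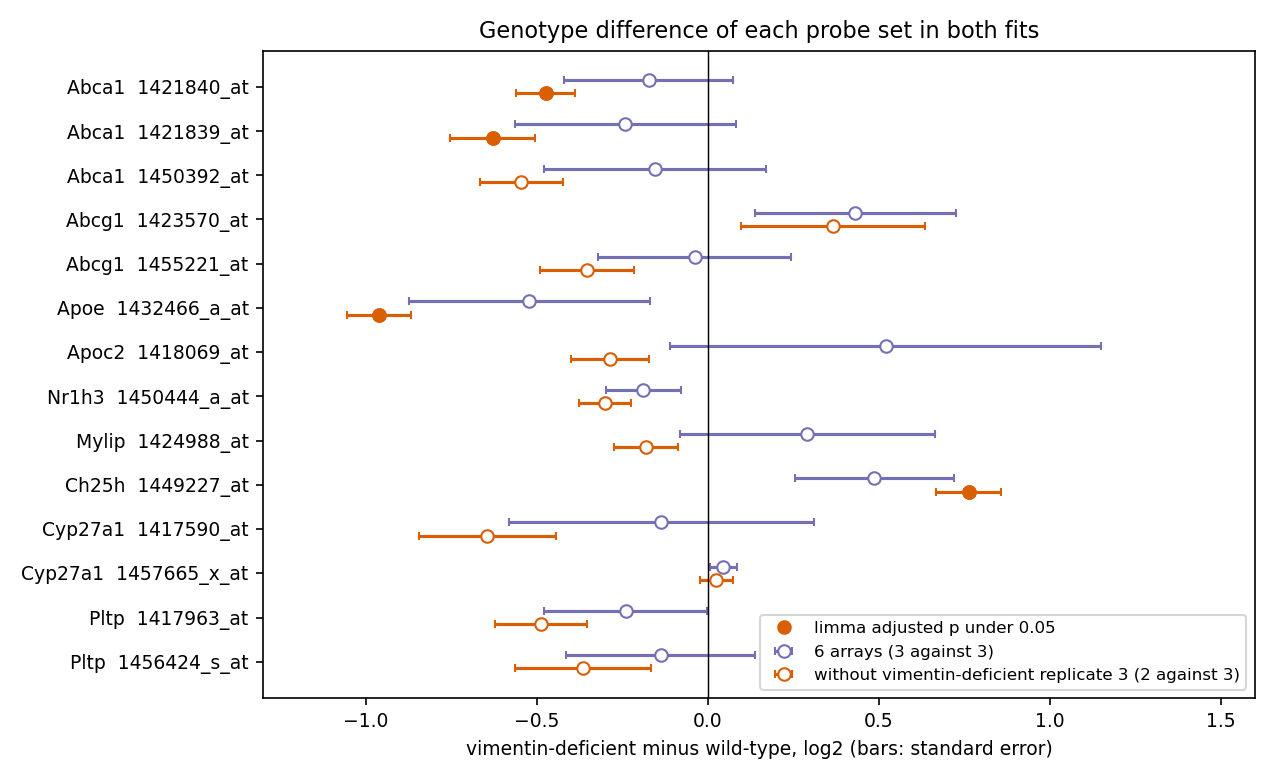
Log2 difference between vimentin-deficient and wild-type macrophages (horizontal axis, bars are limma standard errors) for each probe set, with 6 arrays in purple and without vimentin-deficient replicate 3 in orange. Filled points passed a limma adjusted p of 0.05: Abca1 1421840_at at -0.47, Abca1 1421839_at at -0.63, Apoe at -0.96 and Ch25h at 0.76.

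The arrays ordered the genes in a similar way. Vimentin-deficient replicates 1 and 2 lay below all wild-type arrays for 8 of 14 probe sets, those of Abca1, Apoe, Nr1h3, Mylip, 1417590_at of Cyp27a1 and 1417963_at of Pltp (15.7% of all tested). They lay above all wild-type arrays for 2 of 14, of Ch25h and 1457665_x_at of Cyp27a1, the latter by a margin far below the spread between arrays (12.2% of all tested). Replicate 3 was the highest of the 6 arrays for 10 of 14 (25.9% of all tested). For 7 of 14, of Abca1, Apoe, Mylip, 1417590_at and 1417963_at, replicates 1 and 2 were below all wild-type arrays while replicate 3 was above all of them (3.68% of all tested). Mylip enters the counts of 8 and 7 by a small margin, since vimentin-deficient replicate 2 and wild-type replicate 1 both rounded to 10.09. Abca1 enters both counts with 3 probe sets. All 3 vimentin-deficient arrays lay on one side of the wild-type arrays for 1 of 14, 1457665_x_at (14.8% of all tested).

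Wild-type replicate 1 was the lowest wild-type array for 12 of 14 probe sets, all except those of Nr1h3 and Ch25h (35.9% of all tested). Its distance below the mean of the other wild-type arrays was widest for 1417590_at of Cyp27a1, at -0.76 log2 units. The calls depended on it. When it was left out together with vimentin-deficient replicate 3, 10 of 14 probe sets of 7 genes passed, 9 lower and 1 higher, against 6.38% of all tested. When wild-type replicate 3 was left out instead, 1 of 14 passed (0.311% of all tested), and without wild-type replicate 2 there were 2 (1.29%). Leaving out vimentin-deficient replicate 1 or 2 left 2 in each case (0.633% and 0.755%).

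On vimentin-deficient replicate 3, most exporter and acceptor probe sets were high against replicates 1 and 2, and sterol synthesis genes were low. Its log2 difference from the mean of replicates 1 and 2 was over 1 unit up for 6 of 14 probe sets, of Apoc2 (2.41), Cyp27a1 1417590_at (1.53), Mylip (1.41), Apoe (1.32) and 2 of Abca1 (1.17 and 1.16), against 1.31% of all tested. The median over the 14 was 0.93, and -0.01 over all tested. Abcg1 1423570_at moved little, at 0.19, and Ch25h went the other way, at -0.83. Replicate 3 stood less far above the wild-type mean, by 2.13 for Apoc2, 0.88 for Cyp27a1 1417590_at and 1.23 for Mylip. There Apoe was 0.36 above it, and the same 2 Abca1 probe sets 0.63 and 0.53. No test applies to 1 array. Of 12 tested genes of the SREBP2 axis, 10 were over 1 log2 unit lower on this array (1.71% of all genes tested were) and 0 over 1 unit higher (0.937% of all). The median of the list was -1.89, and Srebf2, the gene of SREBP2 itself, was at -1.44.

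**Figure D4:**
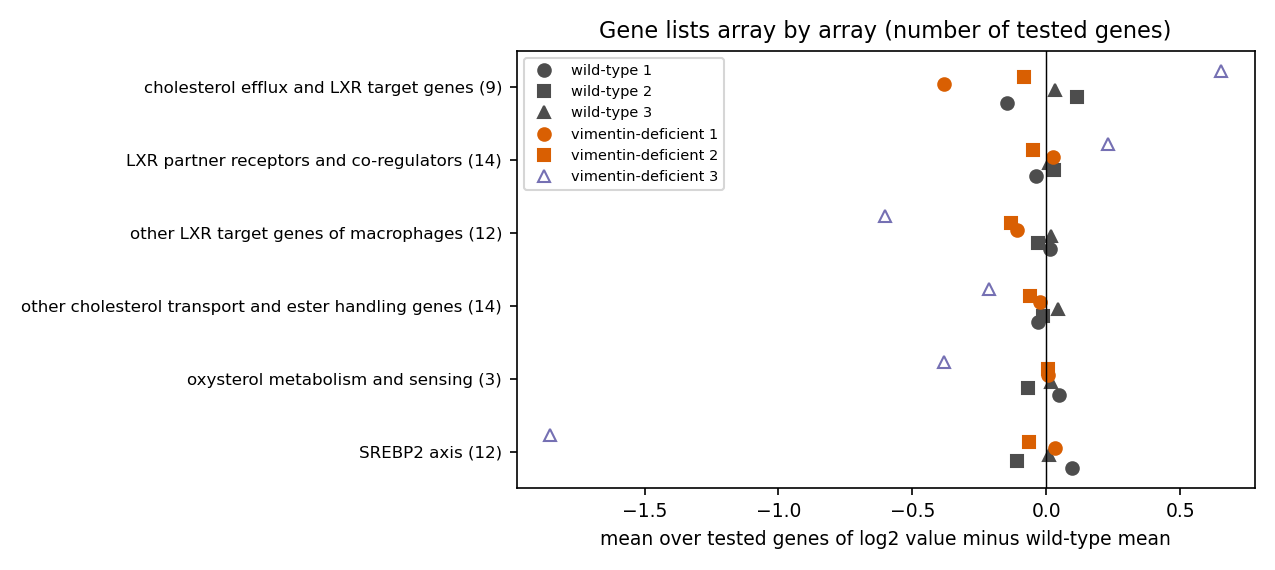
Mean over the tested genes of 6 lists, each gene by its probe set of highest mean, as log2 value minus the wild-type mean (horizontal axis), 1 marker per array. Vimentin-deficient replicate 3 lies at 0.65 for the cholesterol efflux and LXR target genes and at -1.85 for the SREBP2 axis, and the other arrays lie between -0.38 and 0.12 in every list.

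Among other LXR targets of macrophages 1 gene passed the threshold, and that only without replicate 3. Of 12 tested, 0 passed with 6 arrays (0.0223% of all genes tested passed), with a median log2 difference of -0.22. Without replicate 3, 1 fell (0.855% of all genes) and 0 rose (1.08%), with a median of -0.01. The medians over all genes tested were -0.02 and -0.01. Cd5l, which encodes a secreted survival factor of macrophages, was the one that fell (log2 difference -1.14, SE 0.08, limma adjusted p = 0.000116). With 6 arrays its log2 difference was -0.82 (SE 0.26, limma adjusted p = 0.595). It read 12.28, 12.56 and 13.37 on the vimentin-deficient arrays and 13.50 to 13.59 on the wild-type arrays, so all 3 vimentin-deficient arrays were lower. The fatty acid synthesis branch of LXR targets, which acts through SREBP1c, ran with the sterol genes on replicate 3. There Scd2 was at -2.80, Scd1 and Fasn both at -1.82 and Srebf1, the gene of SREBP1c, at -0.50 against replicates 1 and 2. These genes were chosen after their values were seen.

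Partner receptors and co-regulators of LXR showed 0 of 14 tested past the threshold in either fit, with medians of 0.09 and 0.00. The smallest p values were those of the co-activator gene Ncoa3 (0.24, SE 0.08, limma adjusted p = 0.610 with 6 arrays) and of the co-repressor gene Nrip1 (0.15, SE 0.07, limma adjusted p = 0.697). Genes of other cholesterol transport and ester handling had 0 of 14 past the threshold in either fit, with medians of -0.01 in both. The lysosomal acid lipase gene Lipa (-0.12, limma adjusted p = 0.381) and the lipoprotein receptor gene Scarb1 (-0.23, limma adjusted p = 0.393), both without replicate 3, came nearest. In oxysterol metabolism and sensing 0 of 3 tested genes passed in either fit. With 6 arrays Gpr183, an oxysterol receptor gene, was at -0.37 (limma adjusted p = 0.814) and Sult2b1 at 0.04 (limma adjusted p = 0.879). Without replicate 3 Gpr183 was at -0.0013 (limma adjusted p = 0.999) and Sult2b1 at 0.05 (limma adjusted p = 0.852). In the SREBP2 axis 0 of 12 passed in either fit. The medians there were -0.67 with and -0.06 without replicate 3, where Insig1 was at 0.46 (limma adjusted p = 0.439) and Hmgcs1 at -0.23 (limma adjusted p = 0.505). Over all genes tested, 0.0223% passed with 6 arrays, and 0.855% fell and 1.08% rose without replicate 3. At those shares, lists this small would mostly hold no call.

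Markers of other cells were compared on the same arrays by their mean level over each list. Dendritic cell markers, 7 of 8 with a probe set, had mean log2 levels of 7.63 to 8.66 on vimentin-deficient and 7.73 to 7.85 on wild-type arrays. The high end was replicate 3, where H2-Ab1 read 11.53 and Cd74 13.57, while the defining markers Flt3, Zbtb46 and Xcr1 read 7.24, 7.08 and 7.65 there and 7.03 to 7.68 on wild-type arrays. Their part in the values of replicate 3 was not tested. Adipocyte markers, 4 of 6 with a probe set, were at 7.53 to 7.73 on vimentin-deficient and 7.82 to 7.90 on wild-type arrays. Among them Fabp4, which macrophages also express, fell without replicate 3 (-0.97, SE 0.13, limma adjusted p = 0.00378), while Adipoq stayed between 6.13 and 6.35. With 6 arrays Fabp4 was at -0.74 (SE 0.22, limma adjusted p = 0.585). Macrophage markers, 8 of 8 with a probe set, were at 11.98 to 12.14 on vimentin-deficient and 12.04 to 12.17 on wild-type arrays. This mean covers members that moved apart on replicate 3, where the difference from replicates 1 and 2 was 1.61 for Fcgr1, -1.39 for Mrc1 and -0.95 for the integrin gene Itgam. Their part in the values of that array was not tested either. Osteoclast markers (6 of 6) were at 7.01 to 7.35 and 7.03 to 7.09, and the osteoclast protease gene Ctsk read 9.01 on replicate 3. There Ctsk was 1.54 above the mean of replicates 1 and 2. The differences of the other osteoclast markers lay between -0.08 and 0.33. Neutrophil markers (6 of 8), lymphocyte markers (6 of 8) and stromal markers (8 of 8) had mean levels between 7.21 and 7.74 on every array. Single members read higher on arrays of both genotypes, such as the stromal marker Acta2 at 10.20 to 10.33 and the lymphocyte marker Cd3e at 9.08 to 9.27. The deposited values do not separate signal from background, so no marker has a true zero.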

How the data were processed

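The values are log2 probe set values the authors deposited for 6 arrays, 1 sample per array. The sources used here do not name the method that summarised and normalized them. They ran from 5.43 to 14.50 and were used as deposited. Of 45101 probe sets, 64 were controls, 34945 named 1 gene symbol, 932 several and 9160 none. Symbols of 34741 were updated by Entrez ID to the GRCm38.p6 gene table. The 27022 non-control probe sets whose mean over the 6 arrays was at or above the 40th percentile, 6.93, were tested, among them all 14 described. limma 3.58.1 in R 4.3.3 (lmFit, eBayes with a mean-variance trend) compared vimentin-deficient with wild-type arrays without covariates, and Benjamini-Hochberg adjustment ran over all of them, with a threshold of 0.05. Standard errors are limma's moderated ones and SDs are between arrays. For probe sets of one gene, each was subtracted from the one of highest mean and the differences were fitted likewise. List genes were represented by their probe set of highest mean. The procedure was tested on simulated data in which no array stood apart, so the effect of an array like vimentin-deficient replicate 3 was not tested there.

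The members, the lists, the marker genes and the fit without vimentin-deficient replicate 3 were chosen with earlier results of these data known. The rule for named genes took all members, Vim, and from each list up to 4 genes past the threshold or, where none passed, 2 with the smallest p. It also took the 2 markers of highest mean per list, of which only those that bear on a result are printed. Csf1r, Mrc1, Fcgr1, Itgam, Srebf2, Scd1, Scd2, Fasn, Srebf1, Flt3, Zbtb46, Xcr1, Adipoq and Ctsk were named after their values were seen. A planned comparison of Nr1h3 with Nr1h2 was not made, since Nr1h2 is not analysed here.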

Additional observations from a re-analysis of the deposited data

How the results depend on the processing

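For the 14 probe sets, the count of calls stayed at 0 with 6 arrays under quantile normalization, median centring, both filters, 1 probe set per gene, 2 variance models, array quality weights, the replicate block and a threshold of 0.10, and ranged from 0 to 4 when single arrays were left out. Without vimentin-deficient replicate 3 it was 3 to 6 under those settings (weights were not run there) and 1 to 10 with a further array left out. Over all probe sets, 5 passed with 6 arrays, 3 with 1 probe set per gene and 3 without a variance trend, 76 with array weights and 0 to 444 without single arrays. Without replicate 3, 444 passed, 774 at a threshold of 0.10, and 84 to 1724 with a further array left out. Pairs of probe sets of one gene past the threshold ranged from 0 to 14 without single arrays. With array weights Apoc2 turned to -0.12 and Mylip to -0.087. Leaving out single arrays turned the sign of Abca1 1450392_at (-0.54 to 0.051), Abcg1 1455221_at (-0.35 to 0.20), Apoc2 (-0.28 to 1.00), Mylip (-0.18 to 0.57), Cyp27a1 1417590_at (-0.64 to 0.18) and Pltp 1456424_s_at (-0.36 to 0.092), and of probe set differences of Abca1 (-0.0022 to 0.15 and -0.084 to 0.071) and Cyp27a1 (-0.67 to 0.12). Without replicate 3 it turned that of Abcg1 1423570_at (-0.25 to 0.98). The gap of Abcg1 and Abca1 ranged from 0.18 to 0.84 without single arrays, with exact permutation p from 0.1 to 0.4. The cause of these changes was not tested.

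Whether the replicate numbers pair the samples could not be told from the values, since deviations from a group mean depend on each other. Deviations of same-numbered arrays correlated at 0.43, -0.15 and 0.04, and 3 of 6 arrays correlated best with their own number. With the replicate block 0 probe sets passed with 6 arrays, and without replicate 3 there were 411, 3 of them among the 14. There Abca1 1421840_at had -0.46 (limma adjusted p = 0.0731).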
